A study of Mus musculus with 8 samples.

Results

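Aminoacyl-tRNA synthetases are the enzymes that join each amino acid to its transfer RNA before translation. They were examined in sorted microglia, the resident macrophages of the brain, of mice lacking multifunctional protein-2 (MFP2), an enzyme of peroxisomal beta-oxidation encoded by Hsd17b4. The members were a list of 38 gene symbols covering the cytosolic enzymes, the separate mitochondrial enzymes and the scaffold proteins Aimp1 and Aimp2. A gene was measured when a probe set carried its symbol alone, also in the form ending in 1, and where a gene had more than 1 such probe set the one with the highest mean over all 8 arrays was taken. This gave 36 measured members of 19938 genes in all, with 18 of 20 cytosolic enzymes, 16 of 16 mitochondrial enzymes and both scaffolds. Aars, the alanine enzyme, shares its probe set with Exosc6, and it and the aspartate enzyme Dars are not analysed here.

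The tested group was 4 arrays from mice with the genotype MFP2 knockout, and it was set against 4 arrays from controls labelled wild type. All mice were Swiss Webster, labelled female and 17 weeks old, and microglia were sorted from whole brain as cells with high CD11b and intermediate CD45. The labels do not give the knockout allele or the cells in which it acts. Nor do they say that each array is its own animal, and the spread behind the p-values may be partly technical. Values are log2 expression after robust multi-array averaging (RMA), and a difference is knockout minus control on the log2 scale.

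Each synthetase recognises 1 amino acid, except Eprs, which holds the glutamate and the proline enzyme in a single protein. The enzymes fall into class I and class II, which have unrelated catalytic folds. In the cytosol of mammals several of them sit in the multi-synthetase complex, held together by Aimp1, Aimp2 and Eef1e1, while mitochondria use their own enzymes, encoded in the nucleus, for the proteins made inside the organelle. Kars and Gars encode the enzyme of both compartments and are counted here as cytosolic. Several cytosolic synthetase genes are known targets of ATF4, the transcription factor that the integrated stress response brings into play when amino acids or protein folding are limiting, and whose own level is set largely at translation.

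The targeted gene Hsd17b4 fell by 2.88 on the log2 scale in knockout arrays, and the groups did not overlap. On the first principal component of all genes, with 48.7% of the variance, knockout arrays lay between 12.4 and 30.2 and control arrays between -24.7 and -9.62, with control 3 nearest to the knockouts. The transcripts Xist and Eif2s3y of control 1 did not match the female label. Counts of the synthetases and of the gene lists are therefore also given without control 3 and knockout 2, and with control 1 left out as well. Knockout 2 had the highest Hsd17b4 value of its group, 7.20, beside 4.76, 5.21 and 5.20 in knockout 1, knockout 3 and knockout 4. Controls stood at 7.82 to 9.09, so knockout 2 lay nearer to the lowest control than to the next knockout.

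Some cytosolic synthetases rose, and no mitochondrial synthetase was called. Of 18 cytosolic enzymes, 5 were called higher and 0 lower by limma at an adjusted p under 0.05 (27.8%), where 5.38% of all 19938 genes were called higher, 4.17% lower and 9.55% in either direction. These were the serine enzyme Sars, the glutamate and proline enzyme Eprs, the glycine enzyme Gars, the leucine enzyme Lars and the glutamine enzyme Qars. Of the scaffolds, Aimp1 was called higher and Aimp2 was not. Of 16 mitochondrial enzymes limma called 0, and 0 had an unadjusted p under 0.05. That unadjusted limma threshold was passed by 9 of 18 cytosolic enzymes and by 4196 of all 19938 genes. Without control 3 and knockout 2, 3 cytosolic enzymes were called higher, and 3 again when control 1 was left out too. On both occasions these were Sars, Eprs and Gars, with Aimp1 called as well and no mitochondrial enzyme. In bulk samples fewer cells of a type and less RNA per cell cannot be told apart.

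Sars joins serine to its transfer RNA. Its log2 values were 9.50, 9.62, 9.55 and 9.51 in knockout 1 to knockout 4, against 8.92, 8.90, 8.73 and 8.59 in control 1 to control 4. The knockout arrays varied little (SD 0.05) and the lowest of them stood well above the highest control. The difference was 0.76 ± 0.09 (SE, limma adjusted p = 0.000536), or 1.69-fold, the highest of the 36 members. Eprs, the bifunctional enzyme of the complex, was at 9.13, 8.91, 9.19 and 9.45 in knockouts, against 8.40, 8.50, 8.56 and 8.37 in controls. The knockouts spread more than the controls (SD 0.22 and 0.09), with knockout 4 highest and no overlap. Its difference was 0.71 ± 0.11 (SE, limma adjusted p = 0.00184), or 1.64-fold.

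Gars serves the cytosol and the mitochondria. It was at 8.92, 9.21, 8.94 and 8.996 in knockouts, against 8.59, 8.46, 8.43 and 8.31 in controls. Knockout 2 was highest and the groups did not overlap, with a difference of 0.57 ± 0.10 (SE, limma adjusted p = 0.00298). Aimp1 tethers enzymes of the complex and is also the precursor of a secreted cytokine. It was at 8.09, 7.99, 8.56 and 8.25 in knockouts, against 7.79, 7.72, 7.47 and 7.41 in controls. All knockout values were above all control values, with a difference of 0.63 ± 0.13 (SE, limma adjusted p = 0.0101). Sars, Eprs, Gars and Aimp1 kept their calls under all 18 alternative settings at the same threshold, including each of the 8 arrays left out in turn.

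The calls of Lars and Qars rested on a narrower margin. Lars, at 9.01, 8.87, 9.13 and 9.11 in knockouts, against 8.80, 8.76, 8.60 and 8.56 in controls, had its lowest knockout value in knockout 2 and no overlap. Its difference was 0.35 ± 0.10 (SE, limma adjusted p = 0.0390). Qars was at 7.61, 7.62, 7.68 and 7.59 in knockouts, against 7.46, 7.37, 7.19 and 7.16 in controls. The knockouts were close together (SD 0.04) and the controls split, with control 3 and control 4 lowest, for a difference of 0.33 ± 0.09 (SE, limma adjusted p = 0.0406). With 1 array left out, Lars kept its call only when that array was knockout 2, and the other 7 fits gave a limma adjusted p of 0.0510 to 0.121. Qars kept its call only when it was control 1, and the other 7 fits gave a limma adjusted p of 0.0559 to 0.122. Over these 8 fits the difference was 0.31 to 0.40 for Lars and 0.28 to 0.38 for Qars.

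**Figure D1:**
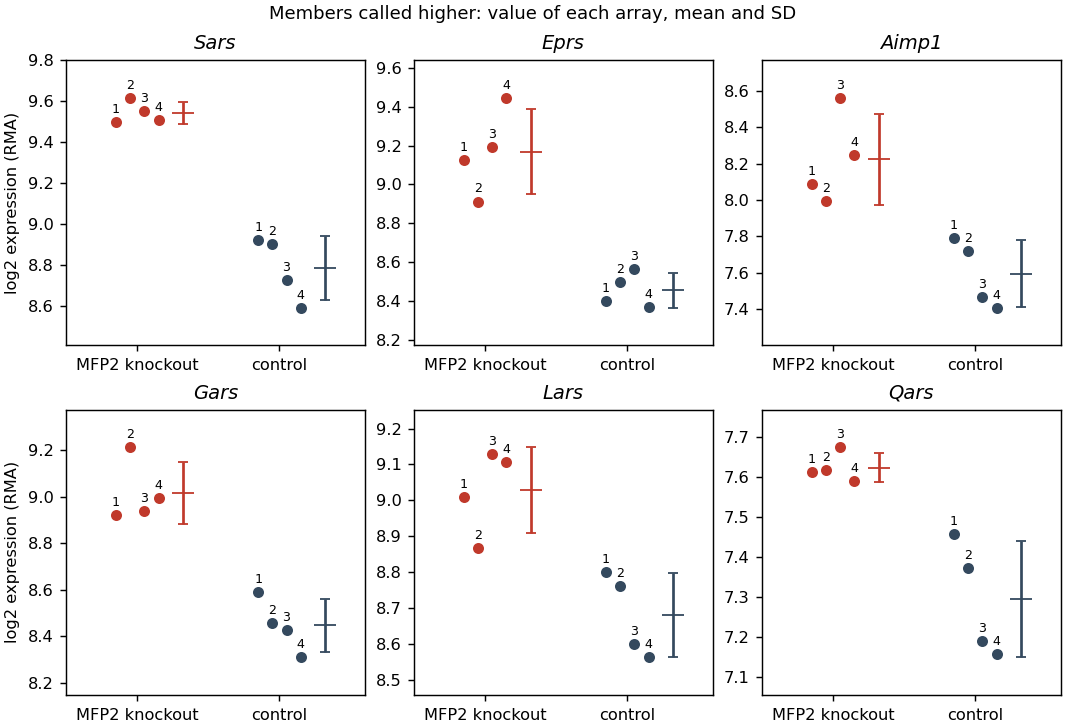
Log2 expression of the 6 members called higher, with MFP2 knockout arrays left and control arrays right. Points are single arrays labelled by replicate number, bars are mean and SD (n = 4 each), and each panel has its own axis. In every panel the lowest knockout array lies above the highest control array.

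Among cytosolic enzymes that did not pass the test, Farsb and Kars had the highest differences and Nars the lowest. Farsb, the beta subunit of the phenylalanine enzyme, was at 8.13, 8.07, 8.36 and 8.33 in knockouts, against 7.90, 8.04, 7.65 and 7.87 in controls. The groups were separated by the small gap between knockout 2 and control 2, and the difference was 0.36 ± 0.11 (SE, limma adjusted p = 0.0559). Farsb was called in 6 of 18 alternative fits, without knockout 2 (limma adjusted p = 0.0462) or control 2 (0.0466), after quantile normalization (0.0308) or cyclic loess (0.0166), without dim genes (0.0370) and with array weights (0.0457). Its partner Farsa, the alpha subunit of the same enzyme, differed by 0.05 ± 0.09 (SE). Farsa stood at 7.75 to 7.99 in knockouts, against 7.74 to 7.82 in controls. The 95% intervals of the subunits' differences were 0.13 to 0.59 for Farsb and -0.14 to 0.23 for Farsa, and whether the subunits differ was not tested.

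Kars, the lysine enzyme, was at 7.52, 7.63, 7.65 and 7.86 in knockouts, against 7.43, 7.55, 7.30 and 7.23 in controls. Knockout 1 lay below control 2, so the groups overlapped, and the difference was 0.29 ± 0.10 (SE, limma adjusted p = 0.119). Nars, the asparagine enzyme, ran the other way. It was at 10.30, 10.25, 10.30 and 10.33 in knockouts, against 10.53, 10.67, 10.35 and 10.58 in controls. Every knockout array was below every control array, control 3 being closest, with a difference of -0.24 ± 0.09 (SE, limma adjusted p = 0.134). Nars was the 1 cytosolic enzyme below its controls with an unadjusted p under 0.05. Nars was called lower after quantile normalization (-0.37, limma adjusted p = 0.0171) and after cyclic loess (-0.41, limma adjusted p = 0.00898).

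The remaining 9 uncalled cytosolic enzymes other than Farsa had differences from -0.06 to 0.28. Hars, Iars, Tars, Vars and Wars, for histidine, isoleucine, threonine, valine and tryptophan, differed by 0.28, 0.24, 0.23, 0.22 and 0.21, and Yars and Rars, for tyrosine and arginine, by 0.15 and 0.14. Mars1, for methionine, differed by 0.09 ± 0.17 (SE), the widest error of the cytosolic set, with knockout 1 at 8.95 and knockout 2 at 8.26. Cars, for cysteine, differed by -0.06. The isoleucine enzyme was the member with a second probe set, which gave 0.29 ± 0.11 (SE) beside 0.24 ± 0.12 for the one used. Knockout and control arrays did not overlap for 8 of 18 cytosolic enzymes, 7 above and 1 below, while this held for 14.0% of all genes, 7.09% above and 6.92% below. Rars is the member of these 7 with the lowest difference: its knockout values ran from 9.04 to 9.11, against 8.87 to 9.01 in controls.

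In the fit to all arrays, calls came from both enzyme classes and from inside and outside the complex. Of the 7 measured cytosolic enzymes that belong to the complex, 3 were called higher (Eprs, Lars and Qars) and all 7 had positive differences, with a median of 0.29. Of 11 enzymes outside it, 2 were called higher (Sars and Gars), and the median was 0.22. Class I had 2 of 9 called higher with a median of 0.21, and class II had 2 of 8 with a median of 0.28; Eprs holds a catalytic domain of each class and was left out of this count. Over all tested genes the median difference was -0.02 and 5.38% were called higher. The class I calls are Lars and Qars, so without control 3 and knockout 2, with or without control 1, class I had 0 called and the complex had 1 (Eprs), while class II and the enzymes outside the complex kept 2 each (Sars and Gars). Class I also had 0 called and the complex 1 without knockout 1, knockout 3, knockout 4, control 2, control 3 or control 4 alone, and 1 and 2 without knockout 2 or control 1. Whether these subgroups differ was not tested.

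Mitochondrial synthetases supply the charged transfer RNAs for the respiratory chain subunits made in the organelle. Their 16 differences ran from -0.12 to 0.18, with a median of 0.06, beside -0.24 to 0.76 and a median of 0.24 for the 18 cytosolic enzymes. Positive differences were found for 12 of 16 mitochondrial and 16 of 18 cytosolic enzymes, against 44.2% of all genes. The highest was that of Fars2, for phenylalanine, at 0.18 ± 0.12 (SE, limma adjusted p = 0.468). Fars2 was at 7.37, 7.46, 7.05 and 7.56 in knockouts, against 7.40, 7.17, 6.98 and 7.17 in controls. Knockout 1 and knockout 3 fell among the controls. Hars2, for histidine, had the lowest difference, -0.12 ± 0.12 (SE, limma adjusted p = 0.679), with values of 7.38, 7.21, 7.17 and 7.32 in knockouts, against 7.54, 7.63, 7.33 and 7.05 in controls. Its controls spread more widely than its knockouts and enclosed them.

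The groups overlapped for all 16 mitochondrial enzymes. Their standard errors, 0.08 to 0.16, were close to those of the cytosolic set, 0.08 to 0.17. Across the 16 genes the 95% intervals of the differences reached no lower than -0.38 and no higher than 0.48, the upper bound being that of Nars2, the asparagine enzyme, which amounts to 1.39-fold. Aars2, Nars2 and Pars2, for alanine, asparagine and proline, had a mean below the median gene. No cytosolic member was below that median. Means ran from 5.75 to 7.66 for the mitochondrial enzymes and from 7.46 to 10.41 for the cytosolic enzymes. The part of this signal difference in the contrast between the sets was not tested.

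**Figure D2:**
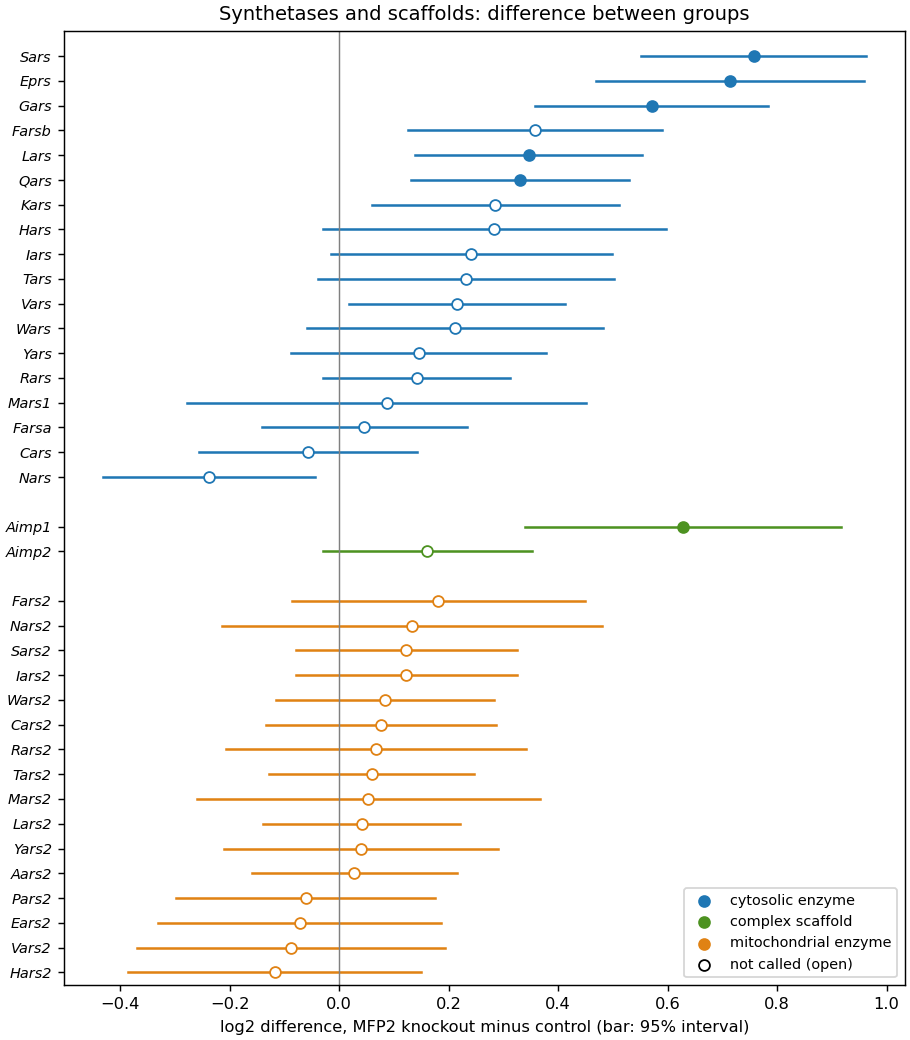
Log2 difference of each of the 36 measured members, MFP2 knockout minus control, with the 95% interval of the limma fit as a bar. Filled points passed an adjusted p of 0.05. The 16 mitochondrial enzymes lie between -0.12 and 0.18 with all points open, and the cytosolic enzymes reach 0.76.

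For 15 pairings the cytosolic and the mitochondrial enzyme for the same amino acid were measured, Eprs being paired with both Ears2 and Pars2 and Farsa with Fars2. The difference of the cytosolic gene was the larger in 12 and that of the mitochondrial gene in 3. For serine it was 0.76 ± 0.09 (SE) for Sars and 0.12 ± 0.09 for Sars2, and for leucine 0.35 ± 0.10 for Lars and 0.04 ± 0.08 for Lars2. Eprs, at 0.71, stood beside -0.07 for Ears2 and -0.06 for Pars2. In these 4 pairings the cytosolic minus the mitochondrial value was higher on every knockout array than on every control array, and in the other 11 it overlapped. The exceptions were cysteine, with -0.06 for Cars and 0.08 for Cars2, phenylalanine, with 0.05 for Farsa and 0.18 for Fars2, and asparagine, with -0.24 for Nars and 0.13 for Nars2. Farsb, the other subunit of the cytosolic phenylalanine enzyme, differed by 0.36 and was not paired. The phenylalanine exception, and with it the counts of 12 and 3, therefore depend on the subunit taken. Pairings that share Eprs are not independent, and no test was made over the pairings. Each of the 4 separated pairings holds a called enzyme (Sars, Lars or Eprs), so the separation largely restates those calls. How often pairs of other genes separate in this way was not counted.

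The arrays of a group differed in how many members stood high. Relative to its own control mean, the median cytosolic enzyme stood at 0.20, 0.19, 0.33 and 0.29 in knockout 1 to knockout 4, against 0.05, 0.12, -0.10 and -0.08 in control 1 to control 4. Between 14 and 16 of the 18 cytosolic enzymes were above their control mean on each knockout array. Among controls the number was 18 on control 2 and 14 on control 1, but 6 on control 4 and 1 on control 3. The mitochondrial enzymes showed a like order among controls, with 15, 10, 3 and 5 of 16 above the mean on control 1 to control 4, beside 13, 8, 11 and 11 on knockout 1 to knockout 4. The median mitochondrial enzyme stood at 0.11, 0.01, 0.02 and 0.03 in knockouts, against 0.12, 0.01, -0.08 and -0.07 in controls, so that control 1 was above every knockout array. The part of this array-wide pattern in the calls was not tested beyond leaving arrays out.

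**Figure D3:**
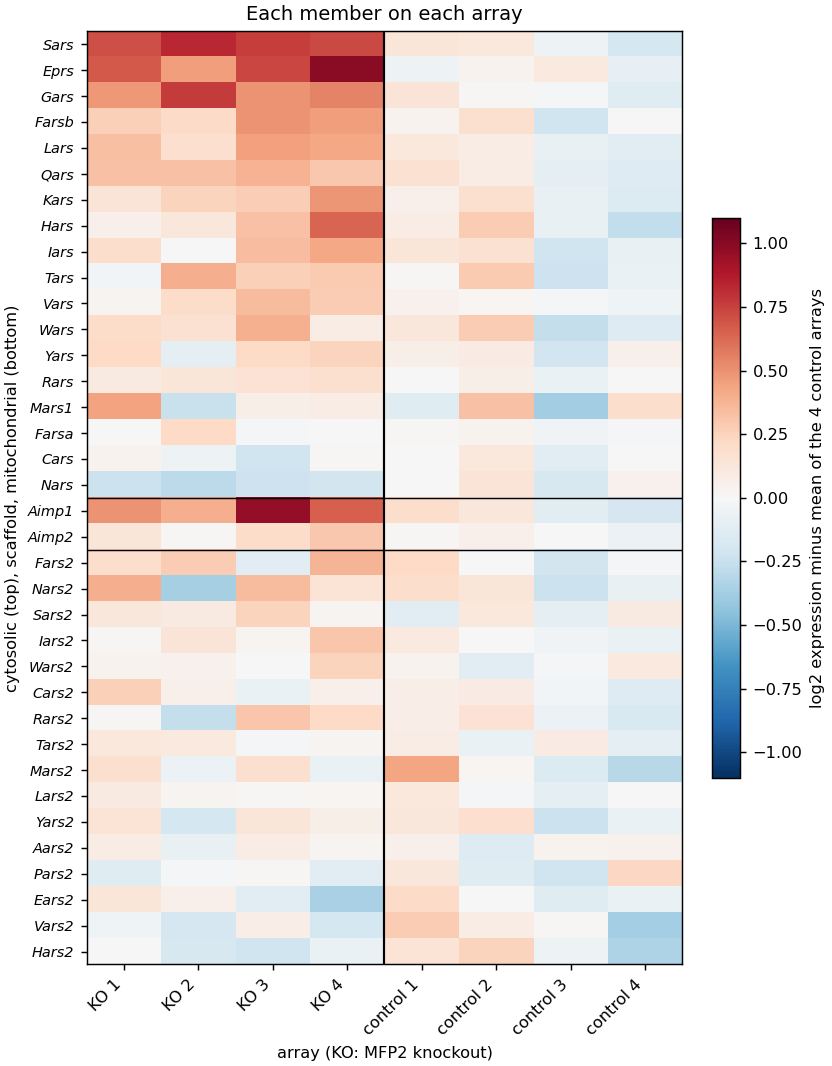
Log2 expression of each member on each array minus the mean of the 4 control arrays of that gene, with MFP2 knockout arrays (KO) left of the vertical line and controls right. Cytosolic enzymes stand at the top, scaffolds in the middle and mitochondrial enzymes at the bottom. The knockout columns are red for Sars, Eprs, Gars and Aimp1, Nars is blue in all 4, and the column of control 3 is above its mean for 1 of 18 cytosolic enzymes.

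Other genes of the charging pathway were called at about the rate of all genes. Of 16 measured partners of the synthetases, which include scaffolds, transfer RNA export, end-processing and editing factors and the mitochondrial amidotransferase, 1 was called higher (6.25%, against 5.38% of all genes) and 0 lower, with a median difference of 0.04. The count was 1 as well without control 3 and knockout 2, and without control 1 too. In the fit to all arrays it was Eef1a1, the elongation factor that carries charged transfer RNA to the ribosome, at 12.77, 12.69, 12.83 and 12.78 in knockouts, against 12.45, 12.29, 12.49 and 12.30 in controls. Its difference of 0.39 ± 0.09 (SE, limma adjusted p = 0.0132) was -0.02 after cyclic loess. Eef1e1, the remaining scaffold of the complex, was singled out after its values were seen. Its difference was 0.35 ± 0.11 (SE, limma adjusted p = 0.0585), with 7.59, 7.85, 7.98 and 7.89 in knockouts, against 7.66, 7.50, 7.34 and 7.40 in controls, and only knockout 1 lay among the controls. Eef1e1 was called in 4 of 18 alternative fits. These were without knockout 1 (limma adjusted p = 0.0217) or control 1 (0.0496), after cyclic loess (0.0300) and without dim genes (0.0387).

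Of 14 genes of mitochondrial translation, 1 was called higher and 1 lower (14.3%, against 9.55% of all genes), and the median difference was -0.04. Without control 3 and knockout 2 these counts were 1 and 1, and 0 and 0 with control 1 left out too. Mrrf, which recycles mitochondrial ribosomes, was at 7.25, 7.41, 7.21 and 7.43 in knockouts, against 6.64, 6.98, 6.60 and 6.55 in controls (difference 0.63 ± 0.11, SE, limma adjusted p = 0.00315). Its groups did not overlap. Gfm2, which acts with it in recycling, was at 7.73, 7.58, 7.24 and 7.50 in knockouts, against 8.02, 8.41, 7.89 and 7.79 in controls (difference -0.52 ± 0.14, SE, limma adjusted p = 0.0380). Knockout 1 came closest to the controls, and Gfm2 was not called without knockout 2, knockout 3, knockout 4, control 1 or control 2 (limma adjusted p = 0.0572 to 0.118).

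The ATF4 targets that are not synthetases had more calls and a higher median difference than the synthetases. Of 22 measured, 15 were called higher (68.2%, against 5.38% of all genes) and 0 lower (4.17% of all genes). Their median was 0.67, beside 0.24 for the cytosolic enzymes. The 22 include the gene Atf4 itself, which was not called. Without control 3 and knockout 2, 15 were called higher, and 13 with control 1 left out too. Asns, which makes asparagine, was at 7.51, 7.53, 7.80 and 7.68 in knockouts, against 5.11, 5.05, 6.09 and 4.94 in controls. Control 3 stood above the other controls and below every knockout, and the difference was 2.33 ± 0.21 (SE, limma adjusted p = 0.000169), or 5.03-fold. Nars, the enzyme that charges asparagine, was lower in knockouts but not called, and a link between Asns and Nars was not tested. The mitochondrial folate enzyme Mthfd2 rose by 1.11 ± 0.11, the neutral amino acid transporter Slc7a5 by 0.98 ± 0.11 and the cationic amino acid transporter Slc7a1 by 1.14 ± 0.14 (SE, limma adjusted p = 0.000222 to 0.000554). Atf4 itself, named after its values were seen, differed by 0.01 ± 0.09 (SE), with 9.22, 9.37, 9.33 and 9.28 in knockouts, against 9.18, 9.28, 9.21 and 9.47 in controls.

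**Figure D4:**
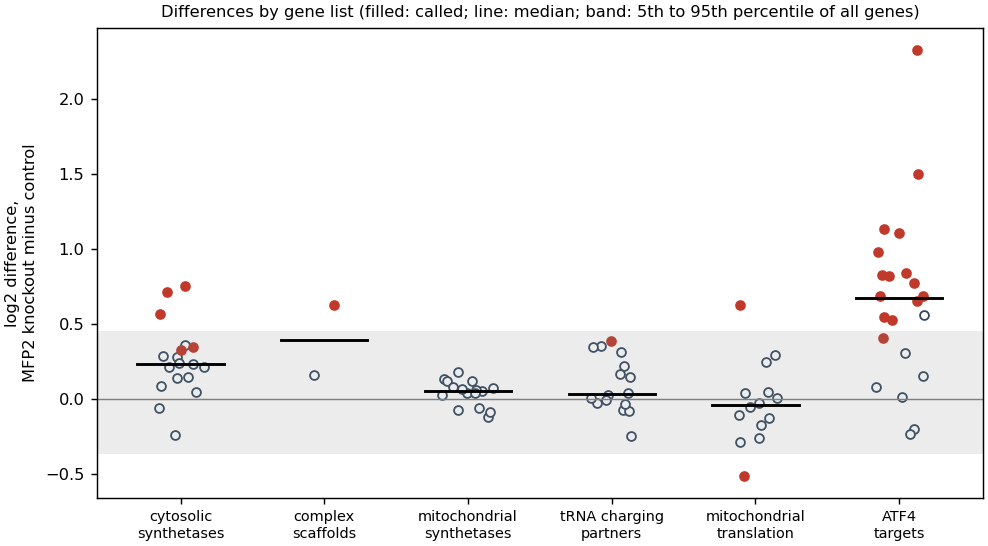
Log2 difference of each gene, MFP2 knockout minus control, by list, with called genes filled, the median of each list as a line, and the 5th to 95th percentile of all genes (-0.36 to 0.46) as a grey band. Medians are 0.24 for cytosolic enzymes, 0.06 for mitochondrial enzymes and 0.67 for the list of ATF4 targets, Atf4 included.

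The promoters of the members were searched for the motif TGATGNAA, the core of the composite C/EBP-ATF element that ATF4 binds, on both strands, from 250 bases before to 50 after a RefSeq transcript start (GRCm38.p6). A window was at hand for 27 of the 36 members. The motif was found for 4 of 11 cytosolic enzymes, Gars, Iars, Tars and Yars, for 0 of 14 mitochondrial enzymes and for 0 of 2 scaffolds, against 4.51% of 27025 genes. For the ATF4 targets that are not synthetases it was found for 8 of 23. Of the motif-bearing enzymes Gars was called and Iars, Tars and Yars were not. The called enzymes Sars, Eprs and Qars do not hold these letters in the window, from which nothing follows about ATF4. For 4 enzymes the stretch is shown from 120 bases before to 20 after the start, 5′ to 3′ on the strand of the gene, with the motif (as its reverse complement) in capitals. Gars is shown as the called enzyme with the motif, Iars and Tars as uncalled enzymes with it, and Sars as the enzyme with the highest difference and no match. Gars lies at chr6:55037881-55038020 (plus strand), Iars at chr13:49682010-49682149 (plus strand), Tars at chr15:11399639-11399778 (minus strand) and Sars at chr3:108445240-108445379 (minus strand).
Gars: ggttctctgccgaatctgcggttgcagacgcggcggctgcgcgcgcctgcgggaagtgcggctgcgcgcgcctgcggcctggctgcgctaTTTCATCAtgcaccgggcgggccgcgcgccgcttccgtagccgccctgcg
Iars: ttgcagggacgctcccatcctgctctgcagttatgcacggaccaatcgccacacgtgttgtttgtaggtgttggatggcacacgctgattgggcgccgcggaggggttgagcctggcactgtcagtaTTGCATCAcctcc
Tars: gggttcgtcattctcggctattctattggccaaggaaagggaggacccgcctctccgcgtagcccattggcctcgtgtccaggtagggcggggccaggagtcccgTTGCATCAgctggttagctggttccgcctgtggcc
Sars: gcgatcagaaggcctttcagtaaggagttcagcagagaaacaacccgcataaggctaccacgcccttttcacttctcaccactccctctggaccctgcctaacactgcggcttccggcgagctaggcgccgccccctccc
The motif spans bases -30 to -23 of Gars, 8 to 15 of Iars and -15 to -8 of Tars, counted from the first transcribed base as 1.

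Synthetases are used by every cell, so marker levels of the cell types a sort could hold are set beside these results. Over all genes 4.17% were called lower and 5.38% higher. The summed linear level of the 5 measured microglial markers was 16200 to 17760 in knockouts, against 21490 to 24590 in controls, and 4 of the 5 were called lower. Border macrophage markers had 3 of 4 called lower (summed level 215.1 to 371 in knockouts, against 402.5 to 732.7 in controls), monocyte markers 1 of 2 (155.9 to 229.5 in knockouts, against 168.2 to 349.9 in controls). Endothelial markers had 1 of 3 called lower, Pecam1, while Cldn5 and Kdr were not called (153.2 to 202.7 in knockouts, against 271.8 to 415 in controls). Pecam1 differed by -1.56, beside -0.10 for Cldn5 and -0.07 for Kdr, so the endothelial sum mostly follows Pecam1. Among astrocyte markers 1 of 3 was called higher, Gfap (179.5 to 228.7 in knockouts, against 124.1 to 163.8 in controls). Gfap differed by 1.28, beside 0.26 for Slc1a2 and -0.02 for Aqp4. Among oligodendrocyte markers 1 of 2 was called higher (Mbp; 235.3 to 292.6 in knockouts, against 173.4 to 208.1 in controls). The other, Mog, ran the opposite way, by -0.24 ± 0.10 (SE, limma adjusted p = 0.173). The summed level mostly follows Mbp, with a mean log2 value of 7.46 beside 5.50 for Mog. Limma called 0 of 4 neutrophil, 0 of 2 B-cell, 0 of 2 T-cell and 0 of 3 neuronal markers, of which 0, 0, 1 and 1 had an unadjusted p under 0.05. Of all 19938 genes 4196 had an unadjusted limma p under 0.05. The summed neutrophil level was 6306 to 11330 in knockouts, against 2602 to 17120 in controls, and that of T cells 234.6 to 545.8 in knockouts, against 164.5 to 353.9 in controls. B-cell markers summed to 33.97 to 58.51 in knockouts, against 33.3 to 44.42 in controls, and neuronal markers to 154 to 175.4 in knockouts, against 125.7 to 160.2 in controls. The neuronal markers did not run the same way: Snap25 differed by 0.35, Rbfox3 by -0.01 and Syt1 by -0.10. RMA gives no value of 0, so absence cannot be read from these arrays, and the part of these cells in the synthetase results was not tested.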

How the data were processed

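The authors deposited log2 expression values of each probe set on each array. The submitters' processing notes name RMA as the method, and its version is not stated in them; that the scale is log2 was inferred from the values (2.04 to 13.99). Per the labels' protocols, 5.775 ng of total RNA with an integrity number of at least 8 was amplified per array. RMA includes a normalization between arrays, which can hide a change common to all genes; the deposited array medians still ran from 6.03 to 6.15. Of 28874 probe sets, 21789 had 1 gene symbol in the platform annotation, 1621 had several and 5464 none. By gene number 21698 matched a RefSeq table of GRCm38.p6, which changed 0 symbols. All 19938 genes entered 1 limma fit (version 3.58.1, R 4.3.3, lmFit and eBayes, two-sided, no covariate), dim genes included, and p-values were adjusted by Benjamini-Hochberg over this whole set. The number of arrays, 4 per group, limits the precision.

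Members and lists were chosen with earlier results of these data known, so they are described by counts and medians without a test over the list. Members given in full are those called and the 2 highest and 2 lowest of the others; Fars2, Farsa and Rars were added after their values were seen. Each list is illustrated by up to 4 called genes with the lowest adjusted p. The fit was repeated with quantile normalization, centring, cyclic loess, dim genes removed, probe sets averaged, a mean-variance trend with robust eBayes, weighted arrays, replicate number as block, and single arrays omitted. Calls were also made at an adjusted p under 0.01 and at 1.5-fold or more. Fits lacking control 3 and knockout 2, and these plus control 1, were chosen after seeing the data. The code was tested on simulated data. Promoter windows came from RefSeq, and plots from matplotlib 3.10.9 (Python 3.11.15).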

Additional observations from a re-analysis of the deposited data

Results flagged for a closer look

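In 5 of 74 groups of 4 arrays, which were examined for the 36 members and Hsd17b4, 1 array stood apart from the other 3 by Dixon's criterion for a gap relative to the group's range at the 95% level. Chance alone marks about 1 group in 20. Farsa was at 7.99 in knockout 2, above 7.77 for the next knockout array. Yars was at 7.54 in knockout 2, below 7.86 for the next, and at 7.43 in control 3, below 7.70 for the next. Aars2 was at 5.90 in control 2, below 6.08 for the next control array, and Wars2 at 7.45 in knockout 4, above 7.25 for the next. None of these 4 genes was called.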

How the results depend on the processing

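Sars, Eprs, Gars and Aimp1 kept their direction and call in all 18 alternative fits, and no mitochondrial synthetase was called in any (lowest adjusted p 0.190). The 5 cytosolic enzymes called higher became 3 with arrays centred on their medians, with the replicate block, at an adjusted p under 0.01 and without control 3 and knockout 2 (with or without control 1), 2 at 1.5-fold, and 3 to 5 with 1 array left out. They became 6 after quantile normalization, without dim genes and with array weights (Farsb added in each), and 7 after cyclic loess (Farsb and Kars added). The 0 called lower became 1 (Nars) after quantile normalization and after cyclic loess. Aimp1 passed 1.5-fold but not an adjusted p of 0.01, where 0 scaffolds were called. Of the partners 1 to 3 were called higher with 1 array left out, 3 after cyclic loess, 2 without dim genes, and 0 at an adjusted p under 0.01 or at 1.5-fold. Of the mitochondrial translation genes 0 to 2 were called lower with 1 array left out, and 0 with centred arrays, at an adjusted p under 0.01, at 1.5-fold or without control 1, control 3 and knockout 2, where 0 were called higher too. The ATF4 targets called higher were 13 to 15 with 1 array left out. Over all genes the higher and lower calls, 1073 and 832, became 567 and 358 at an adjusted p under 0.01, 597 and 313 at 1.5-fold, 649 and 494 without the 3 arrays, and 753 to 1162 and 507 to 960 with 1 array left out. The stricter thresholds call fewer genes by construction; the other causes were not tested.

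Direction turned for uncalled members in 14 of 645 comparisons. With 1 array left out the log2 difference spanned -0.011 to 0.067 for Farsa, -0.041 to 0.20 for Mars1, -0.018 to 0.063 for Aars2, -0.14 to 0.022 for Ears2, -0.049 to 0.20 for Mars2, -0.14 to 0.015 for Pars2, -0.010 to 0.18 for Rars2, -0.21 to 0.0040 for Vars2 and -0.038 to 0.12 for Yars2. Without control 3 and knockout 2 Farsa gave -0.024, and with control 1 left out too Farsa gave -0.021, Mars1 -0.064 and Vars2 0.090. Eef1a1 gave -0.021 after cyclic loess. Atf4 spanned -0.025 to 0.074 with 1 array left out and gave -0.027 after quantile normalization, -0.046 after cyclic loess, -0.037 without control 3 and knockout 2, and -0.10 without control 1 as well.

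The replicate numbers gave little sign of pairing: deviations of same-numbered arrays correlated at 0.158, -0.0645, 0.00587 and 0.00783 over all genes. Only knockout 1 had the control of its own number as its best match. So few correlations cannot show whether the arrays were paired. With the replicate block the calls of Lars and Qars were lost (adjusted p = 0.0837 and 0.0698). The number of arrays and the lower signal of the mitochondrial enzymes, 3 of which were dim, limit what small differences could be seen.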
